A study of Homo sapiens with 6 samples.

Results

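The genes examined are 46 translation initiation and elongation factors, chosen by symbol from the 25445 rows of a count table: subunits and single factors of the eIF1 to eIF6 families, eIF4E-binding proteins and elongation factors with their regulators. All 46 were found, and all 46 passed the filter on low counts that left 15957 rows for testing. The cells were MHCC-97H, an established human hepatocellular carcinoma line, treated for 16 h with solvent alone or with 6j at 10 μM, a compound derived from sophoridine, which is an alkaloid found in plants. Each group had 3 libraries of oligo(dT) selected RNA, numbered 1 to 3, which are called 6j treated and non-treated. The comparison asks which genes change their RNA level under 6j.

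Initiation begins when eIF1, eIF1A, eIF3 and eIF5 assemble on the small ribosomal subunit with eIF2, which carries the initiator methionyl tRNA. The eIF4 factors bind the mRNA cap and bring the mRNA to this complex, and eIF2B reloads eIF2 with GTP after each round. Binding of 4E-BP proteins to eIF4E blocks cap-dependent initiation, and the elongation factors eEF1 and eEF2 then deliver aminoacyl tRNAs and move the ribosome along the message. Phosphorylation of eIF2 and of the 4E-BPs is known to control the system, and neither is visible in RNA counts.

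The total count was 31533403 to 38018349 per library, and the 46 factors took 2.17% to 2.61% of it. The share was lowest in replicate 2 of each group, at 2.17% in non-treated and 2.21% in 6j treated cells. The labelled liver origin was checked against 10 hepatocyte-lineage markers. Of these, 2 (TTR and EPCAM) were at 0 in all libraries, and ALB, AFP, APOA1, APOB and SERPINA1 had at most 10 counts in any library, while KRT8 and KRT18 made up nearly all of the list's summed counts of 34111 to 38013 in non-treated and 27114 to 28325 in 6j treated libraries. The list's sum was thus lower in all 3 6j treated libraries. KRT8 fell by 0.58 on the log2 scale (adjusted p = 0.0211, edgeR), and KRT18 did not pass, at -0.32 (adjusted p = 0.0661). In a fit with the replicate number as a block, KRT18 did pass (adjusted p = 0.00168, edgeR). HNF4A, with 19 to 53 counts per library, was at 0.21 (adjusted p = 0.798, edgeR). Of 4 leukocyte markers, PTPRC and CD3E were at 0 throughout and CD79A had at most 2 counts, while CD68 held 1387 to 2224 counts per library. Of 4 fibroblast markers, COL1A1 held 6972 to 10461 counts and COL3A1 981 to 1800, PDGFRB 145 to 237 and DCN at most 7. None of the 3 that were tested passed without the block (adjusted p of 0.252 or above, edgeR). With the block, COL3A1 passed, at -0.36 (adjusted p = 0.00885, edgeR), and COL1A1 and PDGFRB did not. The part of these marker levels in the results was not tested, and in bulk RNA fewer cells of a kind and less RNA per cell cannot be told apart.

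Of the 46 factors, 10 passed the test at an adjusted p under 0.05, which is 21.7% against 9.16% of all rows tested. Of the 9285 rows with a mean level at least that of the lowest factor (14.65 CPM, EIF5A2), 13.4% passed, a comparison added after the values had been seen. Those that rose were EIF1, EIF5, EIF2S2 and EIF4EBP1, 4 factors beside a background of 4.79% of rows higher. Those that fell were EIF2B3, EIF3B, EIF3I, EIF4A1, EIF4G1 and EIF5A, 6 factors beside a background of 4.37% lower. With the replicate number as a block, 22 factors passed, 7 higher and 15 lower, beside 26.9% of all rows. Among all 46, the log2 fold change was above 0 in 14 and below 0 in 32, with a median of -0.08, beside a median of 0.0046 and 50.67% of rows above 0 over all rows tested.

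Of the DEGs, which also needed a fold change above 1.5, 3 were factors: EIF1 and EIF4EBP1, higher, and EIF5A, lower. The background was 3.6% of rows in either direction, 2.48% higher and 1.12% lower, and 6.47% with the replicate block, under which 3 factors were DEGs as well. EIF2B3 and EIF4A1 lay just inside the threshold, with log2 fold changes of -0.58 each beside a limit of 0.585 in size. The formal test against a 1.5-fold change (glmTreat) called 0 of the 46 factors, with 1 at an unadjusted p under 0.05. DESeq2 called 3 by the DEG rule, which tests against no change and then applies the 1.5-fold limit, so the 2 counts are not of the same test. The 6j treated and non-treated libraries did not overlap in 17 factors (6 higher and 11 lower), which is 37%, near the 31.7% of all rows and the 39% of rows at a comparable level.

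**Figure D1:**
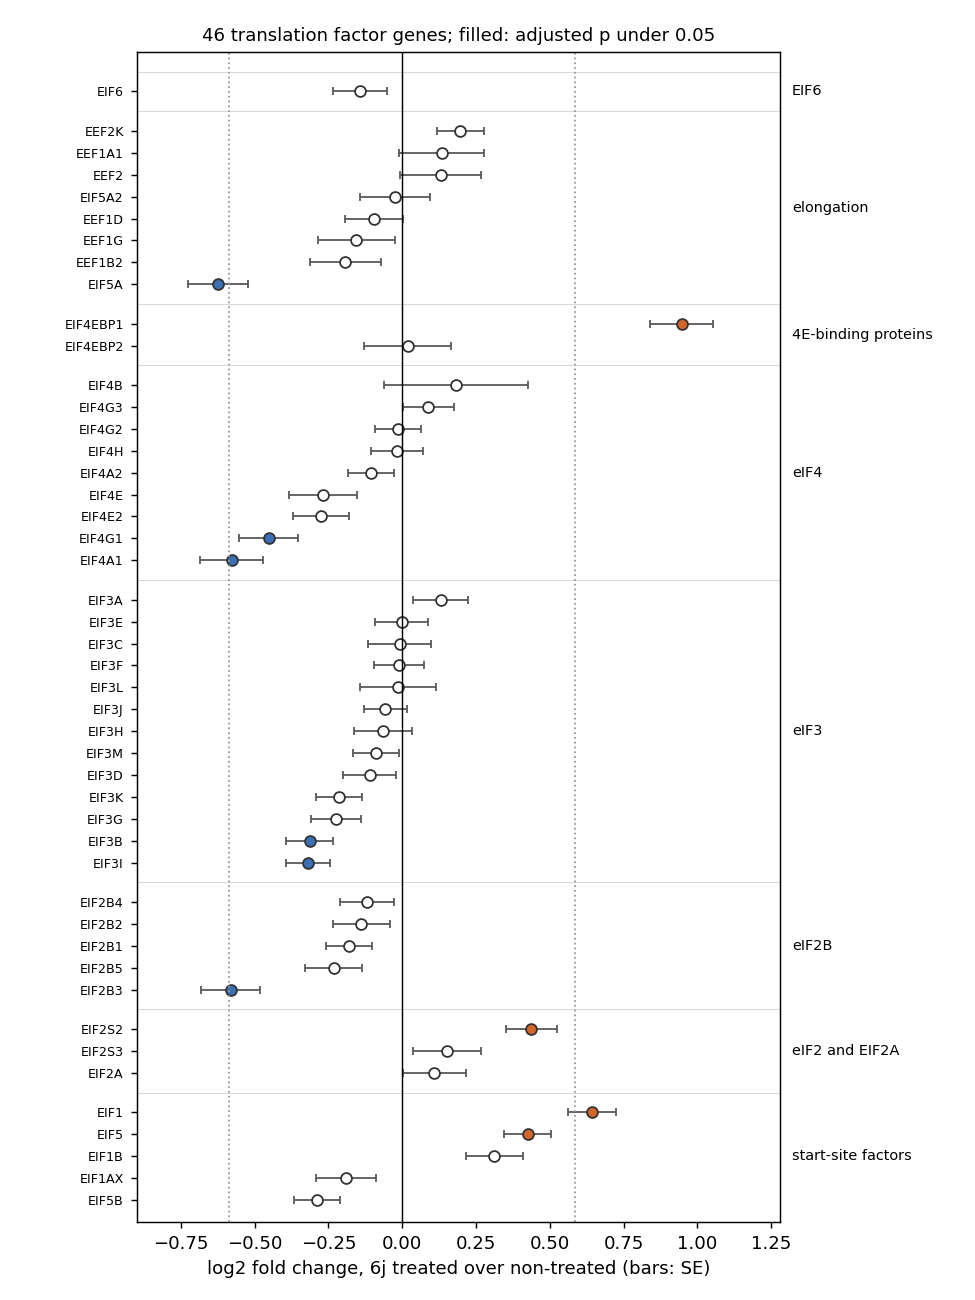
Log2 fold change of 46 factors between 6j treated and non-treated cells (x axis, points with SE bars, 3 libraries a group), ordered within each group of factors. Filled points are the 10 with an adjusted p under 0.05 (orange higher, blue lower), and dotted lines mark a 1.5-fold change; the filled orange points lie among the start-site factors, eIF2 and the 4E-binding proteins, and the filled blue points in eIF2B, eIF3, eIF4 and elongation.

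The start-site factors rose in part. EIF1 encodes the small factor that keeps the scanning ribosome from starting at wrong codons (chromosome 17, 41688885 to 41692668, plus strand). Its level was 274.7, 289 and 290.5 CPM in the non-treated replicates 1 to 3, and 415, 455 and 465 CPM in the 6j treated ones. All 6j treated libraries lay far above all non-treated ones. The means were 285 ± 8.77 and 445 ± 26.8 CPM (SD, n = 3), a log2 fold change of 0.64 (SE 0.08, adjusted p = 0.00489, edgeR).

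EIF5, which makes eIF2 hydrolyse its GTP once the start codon is found, read 335, 317 and 313 CPM without and 433, 453 and 410.1 CPM with 6j. The groups did not overlap, and the log2 fold change was 0.42 (SE 0.08, adjusted p = 0.0157, edgeR). The call was lost without any 1 of the non-treated libraries or without 6j treated replicate 2, with adjusted p up to 0.0788, while the fold change stayed between 0.39 and 0.46.

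The other start-site factors did not pass without the block. EIF1B, a close paralog of EIF1, read 36.4, 34.7 and 36.5 CPM without and 41.2, 49.0 and 43.3 CPM with 6j, so the groups did not overlap. Its log2 fold change was 0.31 (SE 0.10, adjusted p = 0.0726, edgeR), and it passed with the replicate block (adjusted p = 0.0183). EIF5B, the GTPase that joins the large ribosomal subunit, lay at 205, 196 and 221 CPM without and 174, 165 and 171 CPM with 6j, again without overlap. Its log2 fold change of -0.29 (SE 0.08) had an adjusted p of 0.0512, and of 0.00521 with the block (edgeR). EIF1AX, which encodes eIF1A and works beside eIF1 in scanning, overlapped between groups and had a log2 fold change of -0.19 (adjusted p = 0.273, and 0.0334 with the block, edgeR). With the block, all 5 start-site factors passed, 3 higher and 2 lower, beside 26.9% of all rows. The share with the block among rows of a comparable level was not computed.

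Of the eIF2 subunits measured here and EIF2A, 1 passed, EIF2S2, which was higher. EIF2S2 encodes the beta subunit, which contacts EIF5 and eIF2B (chromosome 20, 34088298 to 34112332, minus strand). It read 170.2, 179 and 161 CPM in non-treated replicates 1 to 3 and 226, 249 and 215 CPM in 6j treated ones. The lowest 6j treated library lay above the highest non-treated one. The log2 fold change was 0.44 (SE 0.09, adjusted p = 0.0181, edgeR), and the call was lost without non-treated replicate 1, non-treated replicate 3 or 6j treated replicate 2, with adjusted p up to 0.0905. EIF2S3, the GTP-binding gamma subunit, read 642, 587 and 716 CPM without and 668, 670 and 823 CPM with 6j, and the groups overlapped. Its log2 fold change of 0.15 had a 95% interval of -0.11 to 0.41 (adjusted p = 0.451, edgeR). EIF2A, a separate initiator tRNA binding protein despite its name, had a log2 fold change of 0.11 (adjusted p = 0.569, edgeR).

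The exchange factor eIF2B had values below 0 in all 5 subunits, and 1 passed. EIF2B3, the gamma subunit of the catalytic part (chromosome 1, 44850522 to 44986722, minus strand), read 33.6, 33.6 and 33.7 CPM without 6j, the closest agreement of any factor's non-treated libraries relative to its mean. With 6j it read 24.6, 21.3 and 21.5 CPM, so that every 6j treated library lay below every non-treated one. This was a log2 fold change of -0.58 (SE 0.10, adjusted p = 0.0116, edgeR). The call was lost without non-treated replicate 1 or 6j treated replicate 2, with adjusted p up to 0.066.

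The other 4 eIF2B subunits lay between -0.23 and -0.12 on the log2 scale, with adjusted p from 0.164 to 0.459 (edgeR). EIF2B5, the catalytic epsilon subunit, had a log2 fold change of -0.23 (adjusted p = 0.164) and EIF2B1, the regulatory alpha subunit, of -0.18 (adjusted p = 0.179), and both passed with the replicate block, at 0.0218 and 0.0435 (edgeR). EIF2B2 and EIF2B4 did not pass in either fit. Summed over the 5 subunits, eIF2B held 266 ± 7.53 CPM without and 228 ± 15.3 CPM with 6j (SD, n = 3), and the eIF2 members with EIF2A held 924 ± 64.0 and 1065 ± 85.0 CPM. The sum was thus 14.2% lower for eIF2B and 15.2% higher for the eIF2 members with EIF2A, given here as a description. The latter sum holds EIF2S2, EIF2S3 and the separate protein EIF2A, without the alpha subunit of eIF2. It is therefore not the level of the eIF2 complex.

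The eIF3 complex, the scaffold that holds the initiation factors on the small subunit, was measured by 13 genes. Its summed level was 2883 ± 126 CPM without and 2775 ± 123 CPM with 6j (SD, n = 3), and 2 subunits passed, both lower. EIF3B, a core subunit with an RNA-binding domain (chromosome 7, 2354086 to 2380745, plus strand), read 292, 264 and 291 CPM without and 231, 219 and 232 CPM with 6j. EIF3I, which sits beside EIF3B in the same module (chromosome 1, 32221928 to 32231604, plus strand), read 156, 166 and 166 CPM without and 135.5, 130.3 and 126 CPM with 6j. Neither gene's groups overlapped.

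The log2 fold changes were -0.31 for EIF3B (SE 0.08, adjusted p = 0.0406) and -0.32 for EIF3I (SE 0.07, adjusted p = 0.0323, edgeR). These were the least stable calls among the 10. EIF3B passed in 0 of the 6 fits that left out 1 library, with adjusted p from 0.0583 to 0.178, and EIF3I passed in 1, without 6j treated replicate 1, with 0.12 as the highest adjusted p (edgeR). EIF3I also shares exon sequence on the opposite strand with TMEM234, and the part of this in its counts was not tested.

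EIF3G, the third member of the same mobile module, had a log2 fold change of -0.23 (adjusted p = 0.129) and EIF3K, a peripheral subunit, of -0.21 (adjusted p = 0.114), with no overlap between groups in either. Both passed with the replicate block, at 0.0187 and 0.0208 (edgeR). The other 9 subunits overlapped between groups and passed in neither fit. EIF3A, the largest scaffold subunit, was the 1 eIF3 gene above 0, at 0.13 (95% interval -0.08 to 0.34). EIF3C, EIF3E, EIF3F and EIF3L lay between -0.0138 and -0.0019 on the log2 scale, and EIF3D, EIF3H, EIF3J and EIF3M between -0.11 and -0.06. EIF3C has a near-identical copy, EIF3CL, which held 8914 to 12383 counts in the 6 libraries, so the division of reads between both genes is uncertain.

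**Figure D2:**
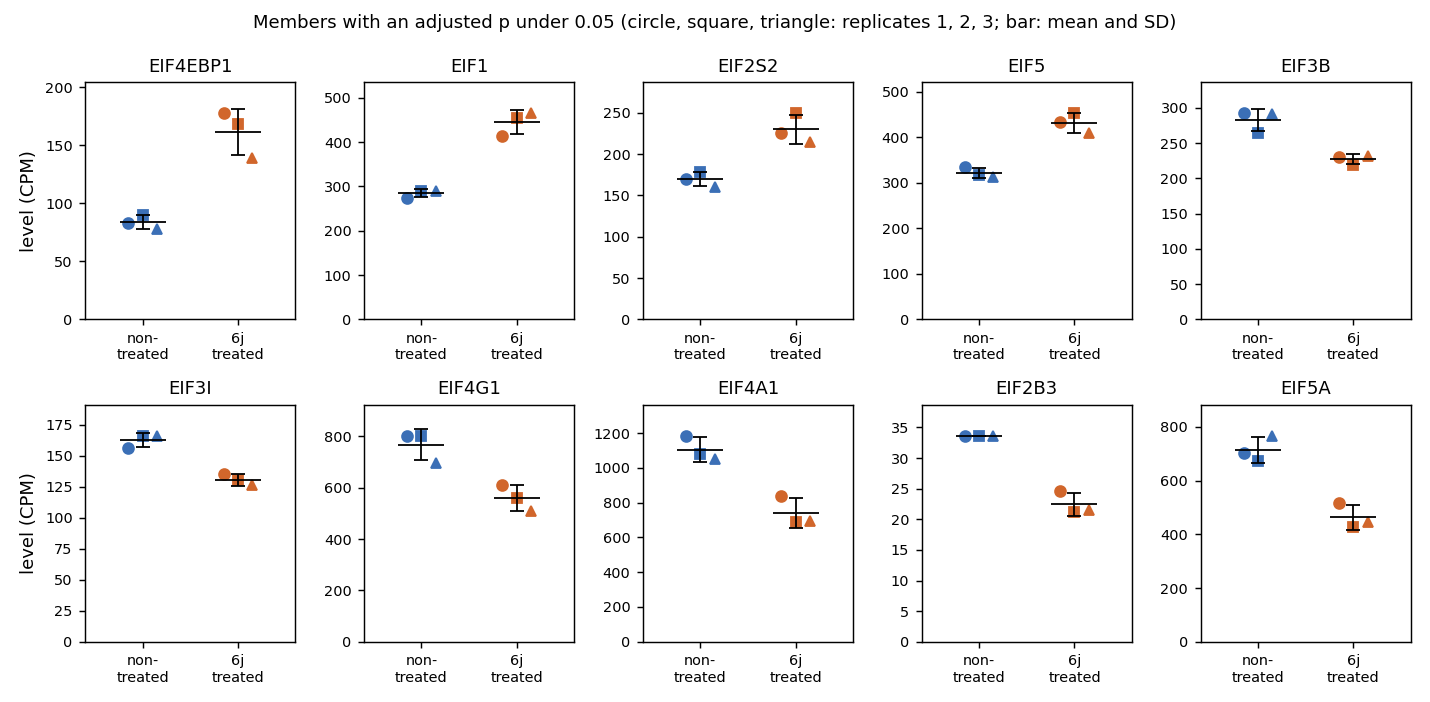
Level (CPM, linear axes from 0) of the 10 factors with an adjusted p under 0.05 in each of 6 libraries, with circles, squares and triangles for replicates 1, 2 and 3 and black bars for the mean and SD of 3 libraries. In each panel all 6j treated libraries (orange) lie on one side of all non-treated ones (blue), from EIF4EBP1 with the highest log2 fold change (0.95) to EIF5A with the lowest (-0.62).

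Within the cap-binding machinery, the helicase EIF4A1 and the scaffold EIF4G1 fell. EIF4A1, which unwinds the leader of the mRNA (chromosome 17, 7572706 to 7579005, plus strand), read 1185, 1078 and 1049 CPM in non-treated replicates 1 to 3 and 838, 688 and 693 CPM in 6j treated ones. All 6j treated libraries lay below all non-treated ones, and the log2 fold change was -0.58 (SE 0.11, adjusted p = 0.0141, edgeR). The call was lost without non-treated replicate 1 or 6j treated replicate 2, with adjusted p up to 0.0813. EIF4A1 shares exons with the read-through gene SENP3-EIF4A1, which held 0 to 818 counts per library and did not follow the groups (adjusted p = 0.82, edgeR).

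EIF4G1, which ties the cap-binding protein to the helicase and to eIF3 (chromosome 3, 184314495 to 184335358, plus strand), read 801, 803 and 698 CPM without and 612, 559.7 and 511 CPM with 6j. The groups did not overlap. The log2 fold change was -0.45 (SE 0.10, adjusted p = 0.0265, edgeR), and the call held in 2 of the 6 fits that left out 1 library, with adjusted p up to 0.126.

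EIF4E, the cap-binding protein itself, read 58.1, 46.1 and 60.3 CPM without and 43.5, 43.9 and 49.2 CPM with 6j, and its groups overlapped through non-treated replicate 2. Its log2 fold change was -0.27 (SE 0.12, adjusted p = 0.176, and 0.0295 with the block, edgeR). EIF4E2, a cap-binding homologue linked to translational repression, read 69.0, 66.9 and 73.9 CPM without and 56.4, 52.7 and 64.4 CPM with 6j, without overlap. It also had a log2 fold change of -0.27 (adjusted p = 0.105, and 0.00625 with the block, edgeR).

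The paralogs EIF4A2, EIF4G2 and EIF4G3 did not pass. EIF4A2, the second eIF4A helicase, read 318, 318.5 and 302 CPM without and 292, 275 and 305.5 CPM with 6j, a log2 fold change of -0.11 (95% interval -0.28 to 0.07). EIF4G2, a relative of EIF4G1 that lacks its eIF4E-binding site, read 859.6, 870.3 and 865 CPM without and 854, 875 and 842 CPM with 6j, and its log2 fold change of -0.01 had a 95% interval of -0.19 to 0.16. EIF4G3, the second full-length scaffold, was at 0.09 (95% interval -0.11 to 0.29), and EIF4H, a helper of the helicase, at -0.02 (95% interval -0.22 to 0.18). The intervals of EIF4A2, EIF4G2 and EIF4G3 do not reach the estimated fold changes of EIF4A1 and EIF4G1. Those estimates have 95% intervals of their own, -0.82 to -0.34 for EIF4A1 and -0.68 to -0.23 for EIF4G1. The interval of EIF4A2 overlaps that of EIF4G1. Setting intervals side by side is not a test of a difference between paralogs, and the pair tests given below could not reach 0.05.

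EIF4B, the other helper of the helicase, varied most between libraries of one group on the log2 scale, with the largest SE of the 46 factors. It read 1203, 862 and 1419 CPM without and 1260, 987 and 1706 CPM with 6j. Within each replicate number the 6j treated library was higher, while the numbers themselves spanned a wider range than the treatment. The log2 fold change was 0.18 (SE 0.24, adjusted p = 0.696, and 0.0351 with the block, edgeR).

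EIF4EBP1 had the highest fold change of the 46 factors. It encodes 4E-BP1, the repressor that binds eIF4E and is released by mTOR phosphorylation (chromosome 8, 38030341 to 38060365, plus strand). Its level was 83.2, 90.2 and 78.1 CPM in non-treated replicates 1 to 3, and 178, 168 and 139 CPM in 6j treated ones. The lowest 6j treated library lay well above the highest non-treated one. The means were 83.8 ± 6.06 and 162 ± 20.02 CPM (SD, n = 3), a log2 fold change of 0.95 (SE 0.11, adjusted p = 0.00315, edgeR). EIF1 and EIF4EBP1 were the 2 factors that passed in all 6 fits that left out 1 library, with adjusted p up to 0.0454 and 0.0267, and their log2 fold changes stayed between 0.61 and 0.69 and between 0.87 and 1.04. Its paralog EIF4EBP2 read 137, 118 and 159 CPM without and 127, 123 and 169 CPM with 6j, and the groups overlapped. The log2 fold change of EIF4EBP2 was 0.02 (95% interval -0.32 to 0.35, adjusted p = 0.955, edgeR).

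Among the elongation genes, 1 of 8 passed. EIF5A encodes the hypusine-containing factor that helps ribosomes through stretches such as polyproline (chromosome 17, 7306999 to 7312463, plus strand). Its level was 702, 672 and 767 CPM in non-treated replicates 1 to 3, and 516, 428 and 446 CPM in 6j treated ones, with no overlap. The means were 714 ± 48.6 and 463 ± 46.6 CPM (SD, n = 3), and the log2 fold change was -0.62 (SE 0.10, adjusted p = 0.0106, edgeR), the lowest of the 46. The call was lost without non-treated replicate 1 or 6j treated replicate 2, with adjusted p up to 0.0608. Its near-identical copy EIF5AL1, at 418 to 776 counts per library, had a log2 fold change of -0.57 (adjusted p = 0.0202, edgeR), and reads of both genes may be mixed. EIF5A also shares exon sequence on the opposite strand with GPS2, whose part in the counts was not tested. EIF5A2, the second hypusine-containing factor, was the least abundant of the 46 in CPM, at 14.6, 14.7 and 15.02 CPM without and 15.9, 13.3 and 14.4 CPM with 6j, a log2 fold change of -0.02 (95% interval -0.29 to 0.24).

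The 2 major elongation factors were the most abundant of the 46 and did not pass. EEF1A1, which brings aminoacyl tRNA to the ribosome, read 8696, 7177 and 8503 CPM without and 9220, 7366 and 10170 CPM with 6j. EEF2, which drives translocation, read 3459, 2842 and 3448 CPM without and 3805, 2937 and 3931 CPM with 6j. In both genes the groups overlapped, because replicate 2 was the lowest library of each group. The log2 fold change was 0.13 in both, with 95% intervals of -0.19 to 0.46 for EEF1A1 and -0.18 to 0.44 for EEF2, and adjusted p of 0.61 and 0.603 (edgeR).

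EEF2K, the kinase that inactivates eEF2, read 60.1, 56.4 and 56.0 CPM without and 67.1, 61.8 and 68.9 CPM with 6j, without overlap. Its log2 fold change was 0.20 (SE 0.08, adjusted p = 0.16, and 0.0396 with the block, edgeR). The exchange factor subunits of eEF1 were all below 0, with log2 fold changes of -0.19 for EEF1B2 (adjusted p = 0.36, and 0.0385 with the block), -0.16 for EEF1G and -0.09 for EEF1D (edgeR). EEF1G shares exons with the read-through gene AP002990.1, which held 1959, 2710 and 1880 counts without and 6341, 1683 and 6104 counts with 6j. That gene did not pass (adjusted p = 0.385, edgeR), and how reads were divided between both was not tested. EIF6, which keeps the ribosomal subunits apart, had a log2 fold change of -0.14 (SE 0.09, adjusted p = 0.377, edgeR).

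Paired factors were compared within libraries, as the difference of their log2 CPM, in 10 pairs of paralogs or partners. EIF4EBP1 minus EIF4E moved from 0.62 ± 0.31 without to 1.82 ± 0.28 with 6j (SD, n = 3), a change of 1.203. The change was above 0 within all 3 replicate numbers, at 1.51, 0.97 and 1.13. EIF4EBP1 minus EIF4EBP2 changed by 0.93, EIF5A2 minus EIF5A by 0.60, EIF4G3 minus EIF4G1 by 0.54, EIF4A2 minus EIF4A1 by 0.48, EIF4G2 minus EIF4G1 by 0.44 and EIF1B minus EIF1 by -0.33. In these 7 pairs the groups did not overlap, and each had the smallest p that a two-sided exact permutation test of 3 against 3 can give (0.1, 0.143 adjusted over the 10 pairs), so that no pair could reach 0.05. EIF2B5 minus EIF2S3 changed by -0.38 (exact permutation p = 0.2), EEF2K minus EEF2 by 0.07 (p = 0.5) and EIF4E2 minus EIF4E by -0.02 (p = 0.9), all with overlapping groups. Within replicate numbers the smallest exact permutation p that 3 pairs can give was 0.25. Each of the 7 pairs without overlap holds a factor that passed on its own in the same libraries, and the overlapping pairs hold none. The pairs thus restate those calls and are not separate support. How often other pairs of genes overlap was not counted.

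**Figure D3:**
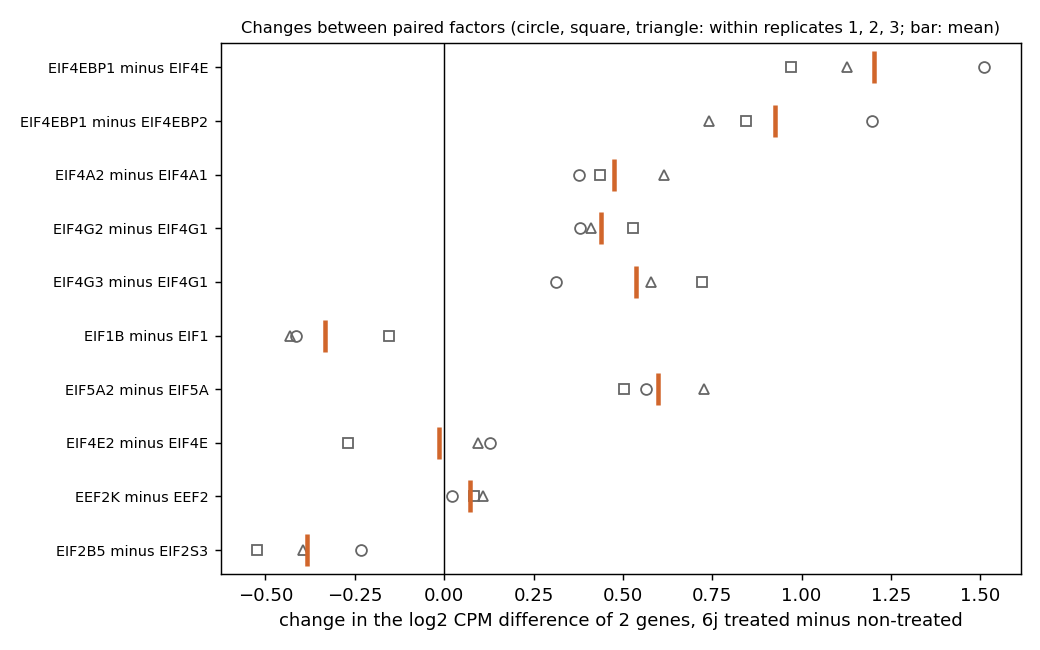
Change in the log2 CPM difference of 2 factors between 6j treated and non-treated cells (x axis) for 10 pairs, with circles, squares and triangles for the change within replicates 1, 2 and 3 and an orange bar for the mean. The open points lie on one side of 0 in 9 of the 10 pairs and on both sides for EIF4E2 minus EIF4E.

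Replicate 2 stood apart for a set of factors. The 5′ terminal oligopyrimidine (TOP) mRNAs, which encode ribosomal proteins and several translation factors, begin with a C followed by an unbroken run of pyrimidines, and their translation and stability are governed together through mTOR and LARP1. Of the 46 factors, 9 were listed as TOP mRNAs from general knowledge: EEF1A1, EEF1B2, EEF1D, EEF1G, EEF2, EIF3E, EIF3F, EIF3H and EIF4B. In all 9, the log2 CPM of replicate 2 was below the mean of replicates 1 and 3, in non-treated and in 6j treated cells. The median of this offset was -0.26 and -0.24 respectively, beside 0.0021 and 0.0056 over all rows tested, where 4845 of 15957 rows were below 0 in both groups. EIF4B had the lowest offsets, at -0.60 and -0.57. The offset is a description of 2 libraries, and what replicate 2 marks is not in the labels. None of the 9 passed without the block, with a median log2 fold change of -0.01.

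The start sequences were taken from RefSeq windows of GRCh38.p14, which were found for 38 of the 46 factors, and the ones shown were chosen after the values had been seen. Each line holds 10 bases before the start and 20 from it, 5′ to 3′ on the strand of the gene, with the run of pyrimidines from a starting C in capitals where at least 4 pyrimidines follow that C. The first 5 have such a start, of which EIF2S3 was not on the list from general knowledge.
EEF1A1: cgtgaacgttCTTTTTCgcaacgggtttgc
EEF2: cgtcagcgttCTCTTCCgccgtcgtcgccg
EIF4B: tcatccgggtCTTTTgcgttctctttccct
EIF2S3: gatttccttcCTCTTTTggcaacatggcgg
EIF3F: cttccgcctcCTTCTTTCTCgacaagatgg
The next 5 are factors that rose or fell and have no such start in any of their windows, with the first of several starts shown for EIF5, EIF4G1 and EIF5A.
EIF1: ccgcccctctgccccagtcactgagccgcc
EIF5: ggcgttgttcagtcagagcgagaacattcc
EIF4A1: ggcactccgccctagtttctaaggatcatg
EIF4G1: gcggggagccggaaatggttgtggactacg
EIF5A: tgggaacccgaccacactagcgcgctagaa

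The windows of EEF1A1, EEF2 and EIF4B start with runs of 7, 7 and 5 pyrimidines, and that of EIF3F with 10. Such a start stood in 11 of the 38 factors with a window, which is 11 of their 52 windows (21.2%), and in 4.07% of all 35116 RefSeq windows. The median offset of replicate 2 over these 11 was -0.21 in non-treated and -0.22 in 6j treated cells, and below 0 in both groups in 8 of them. Over the 27 factors with a window and no such start it was -0.06 and -0.08, and below 0 in both groups in 18, so that the sign was shared by both sets and 32 of all 46. Without the block 0 of the 11 passed, 8 of the 27 and 2 of the 8 with no window, and with it EIF3K, EIF4B and EEF1B2 of the 11 passed. The difference between these sets was not tested. EIF3K, EIF3M and EIF4A2 had such a start but offsets above 0 in non-treated cells, at 0.03, 0.04 and 0.04. EEF1G, which is on the list from general knowledge, had a window without such a start and counts among the 27. Its offsets were -0.43 in non-treated and -0.18 in 6j treated cells. Low offsets also occurred outside both sets of TOP factors. EIF4EBP2, with a window and no such start, was at -0.32 in non-treated and -0.26 in 6j treated cells. EIF3L, with no window and not on the list, was at -0.31 and -0.38.

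**Figure D4:**
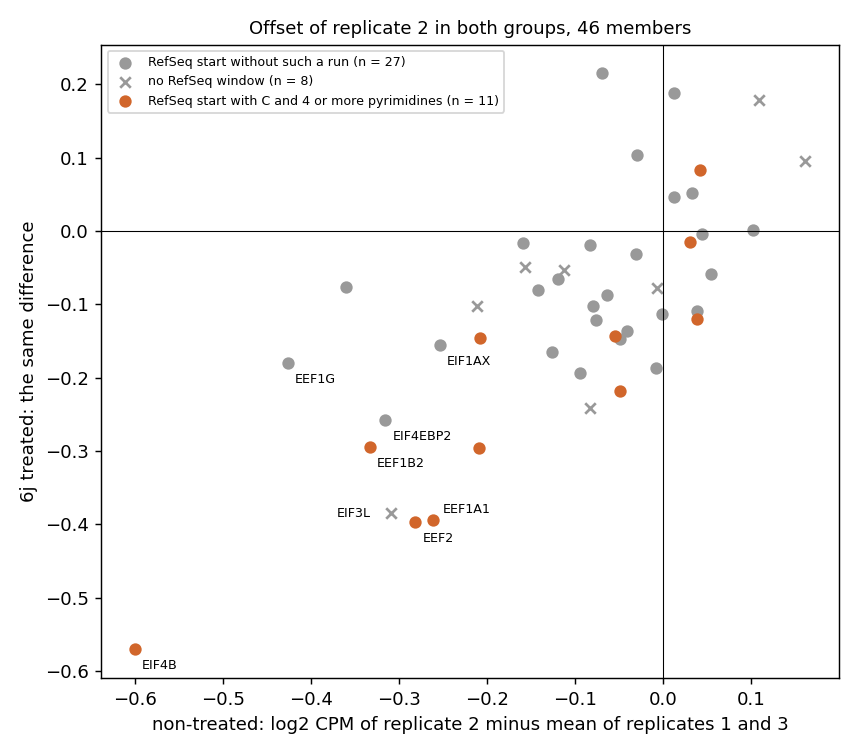
Log2 CPM of replicate 2 minus the mean of replicates 1 and 3 in non-treated (x axis) and 6j treated cells (y axis), 1 point per factor. Orange points are the 11 factors whose RefSeq start has a C and at least 4 further pyrimidines, grey circles the 27 without, and crosses the 8 with no window. EIF4B lies lowest at -0.60 and -0.57. EEF1A1, EEF2, EEF1B2 and EIF2A (orange) lie below -0.2 on both axes, and so do EIF4EBP2 (grey circle) and EIF3L (cross).

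A pair of short motifs was also searched on both strands in the 250 bases before and 50 after each start. TGATGNAAN, a form of the C/EBP-ATF response element, was in 0 of these 52 windows and in 3.61% of all windows. The windows do not cover EIF4EBP1 and EIF2S2, which rose, or EIF3A, EIF3E, EIF3G, EIF3H, EIF3L and EEF1D. CACGTG, the E-box, was in 10 of the 52 (19.2%), each of a different factor, and in 7.26% of all windows. Of the 10 with an E-box, EIF2B3 and EIF4G1 passed the test, both lower, and the other 8 (EIF1B, EIF3F, EIF3K, EIF4B, EIF4E, EIF4H, EEF2K and EIF5A2) did not pass without the block. A match says only that the letters are there.

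Levels between factors were compared per length, as CPM per kb of the principal transcript in GENCODE version 29. EEF1A1 held 1830 ± 186 CPM per kb and EEF2 1027 ± 112 in non-treated cells (SD, n = 3), followed by EIF4A1 with 629 ± 40.6 and EEF1G with 621 ± 103, which did not differ beyond their spread. EIF5A followed with 472 ± 32.2 and EIF4G2 with 439 ± 2.73 CPM per kb. With 6j, EIF4A1 held 421 ± 48.4, EIF4G2 435 ± 8.60 and EIF5A 306.5 ± 30.9 CPM per kb, so that EIF4A1 lay within its SD of EIF4G2 and EIF5A below both. The eIF2B subunits lay between 9.15 and 35.9 CPM per kb in non-treated cells, and EIF2S2 and EIF2S3 at 63.9 and 227 CPM per kb. EIF4EBP1 rose from 82.2 ± 5.94 to 158 ± 19.6 CPM per kb, while EIF4EBP2 held 19.02 ± 2.79 and 19.3 ± 3.54. The values depend on which transcript stands for a gene, and the low values of EIF4E and EIF3F come with principal transcripts of 11523 and 7540 bases. The value of EIF4G2 comes with a transcript of 1969 bases, while all its exons together cover 8655. A longer transcript would lower it, so its place beside EIF4A1 and EIF5A rests on that choice.

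**Figure D5:**
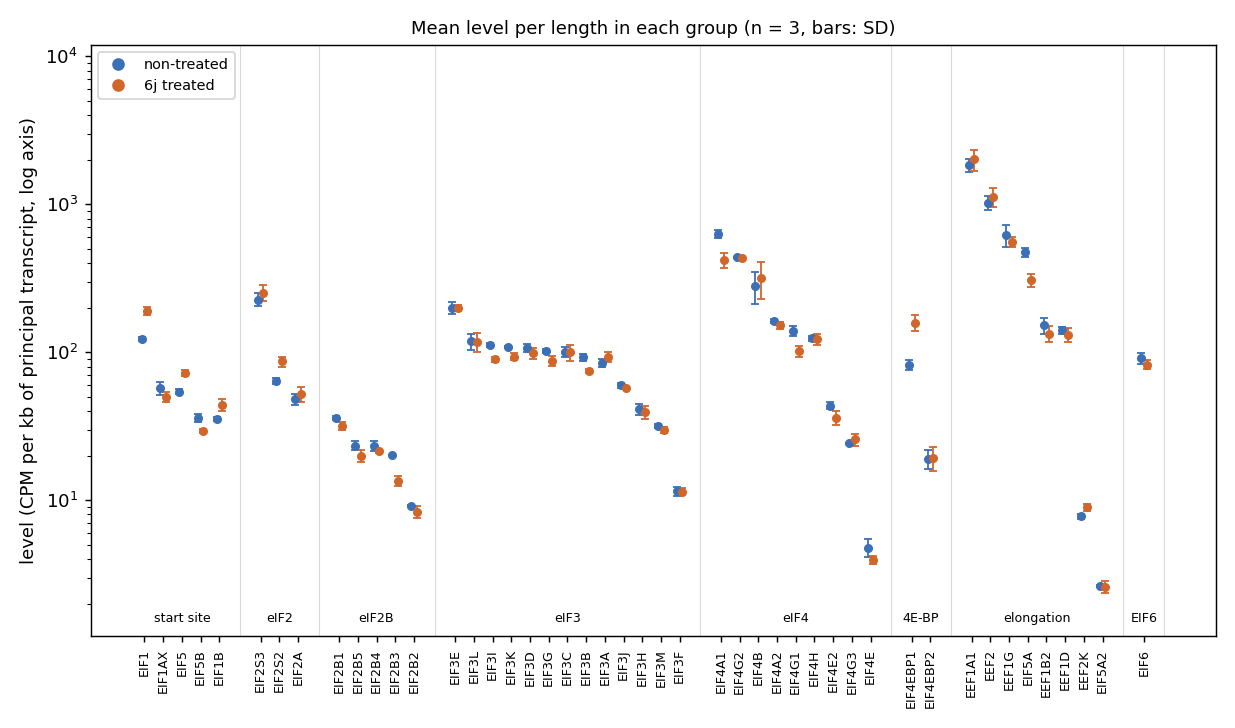
Mean level per length (CPM per kb of principal transcript, log axis) of 46 factors in non-treated (blue) and 6j treated cells (orange), by group of factors, with bars for the SD of 3 libraries. Levels span from 2.64 CPM per kb for EIF5A2 to 1830 for EEF1A1 in non-treated cells, and the eIF2B subunits all lie below 40 CPM per kb.

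Other genes of translation were given by a list of 42, which holds termination and recycling factors, poly(A)-binding proteins, enzymes that modify eIF5A and eEF2, and kinases of the pathway. Of these, 39 were tested and 3 passed, which is 7.69% and near the 9.16% of all rows, with a median log2 fold change of -0.07. MKNK2, a kinase that phosphorylates eIF4E, read 58.5, 62.9 and 79.3 CPM without and 96.6, 118 and 134 CPM with 6j, and its log2 fold change was 0.80 (SE 0.15, adjusted p = 0.0164, edgeR), a rise without overlap. EIF4A3, the eIF4A relative of the exon junction complex, fell by 0.37 on the log2 scale (adjusted p = 0.0416, edgeR), and the third was EIF5AL1. With the replicate block 17 passed, 5 higher and 12 lower, beside 26.9% of all rows.

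Some counting limits touch the factors by name. Of the 46, 3 share exons on the same strand with another gene of the table (EIF4A1, EEF1G and EIF6) and 16 on the opposite strand. GENCODE version 29 holds 134 pseudogenes named after 24 of the factors, 39 of them after EEF1A1 and 13 after EIF4A1. Of these, 0 were among the rows of the table. Whether reads from them were counted in the genes, in other rows or not at all cannot be seen and was not tested.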

How the data were processed

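RNA from MHCC-97H cells was measured in 3 non-treated and 3 6j treated libraries, after oligo(dT) selection. The table deposited by the authors holds unnormalized whole-number counts, 1 row per gene. The submitters' processing notes name HISAT2, StringTie and GRCh38, with no versions, and the strand setting is not given in the sources used here. All 25445 rows entered the analysis, and no column was left out. Levels are CPM on TMM normalized library sizes. Rows passing filterByExpr (15957, minimum count 10) were tested with edgeR 4.0.16 (R 4.3.3, limma 3.58.1) by the quasi-likelihood test, with Benjamini-Hochberg adjustment over all of them. A gene passed at an adjusted p under 0.05, and a DEG also needed a fold change above 1.5. DESeq2 1.42.0, the study's tool, was an alternative. Standard errors were derived from the F statistic, and 95% intervals used edgeR's total degrees of freedom. Differences between paired factors used log2 CPM with a prior count of 2 and two-sided exact permutation tests. The scripts were tested on simulated data, in which fold changes were recovered without bias. Many 1.5-fold changes and some larger ones were not called, so a member that did not pass is not called unchanged.

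Each library held 31533403 to 38018349 counts, of which each factor took 464 to 354295. Deviations from the group means correlated between same-numbered libraries at 0.171, 0.18 and 0.312 over 15957 rows, against -0.231 to 0.0795 for different numbers. Such deviations sum to 0 within a group, so positive values for same numbers force the others below 0 on average. The contrast is therefore partly built in. What a number marks is not in the labels, but all 3 values for same numbers exceeded those for different numbers. The main fit had no block, and a fit with the number as a block is given where it changed a call. Separate cultures are not stated either, so p-values measure only the spread between these libraries, which may be technical.

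The members, gene lists, pairs and motifs were chosen with earlier results of these data known. The rule for named genes took every member that passed and the 3 members with the smallest p in each group of factors. The other members are also given, because all 46 are accounted for, and they lie outside the rule. Coordinates and transcript lengths are from GENCODE version 29 (GRCh38), and start sequences from RefSeq (GRCh38.p14). Alternatives were other normalizations, no filter, DESeq2, Ensembl genes only, glmTreat, leaving out each library and the replicate block. Of the hepatocyte-lineage markers, 1 is not reported here.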

Additional observations from a re-analysis of the deposited data

How the results depend on the processing

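The number of factors passing (10) was 10 to 12 with DESeq2 size factors, upper quartile normalization, no filter, Ensembl genes only or DESeq2, and the 10 were among those called in each. It was 22 with the replicate block, and all 10 were among them. Leaving out 1 library gave 2 to 9, with 2 without non-treated replicate 1 and 2 without 6j treated replicate 2, where 202 and 217 of all rows passed in place of 1462. The number of DEGs among the factors (3) was 2 to 5 with 1 library left out and 0 with glmTreat, which is not the same test. The block passed 12 factors that the fit without it did not, and it ended no call of the 10.

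The test against a 1.5-fold change (glmTreat) called 0 of the 46 factors, but it does not test the 10 calls, which are against no change. Over the 46 factors and all other alternatives, a fold change kept its direction and its side of the threshold in 481 cases. It lost the call in 28, gained it in 15 and changed sign in 28. The changes of sign all concern factors that did not pass. With 1 library left out, log2 fold changes ranged from -0.116 to 0.0569 for EIF3C, -0.0688 to 0.0582 for EIF3E, -0.0452 to 0.0472 for EIF3F, -0.1175 to 0.0114 for EIF3H, -0.11 to 0.10 for EIF3L, -0.0473 to 0.354 for EIF4B, -0.0895 to 0.0196 for EIF4H, -0.14 to 0.13 for EIF4EBP2 and -0.0921 to 0.0376 for EIF5A2. With Ensembl genes only, the values were 0.0072 for EIF3C, 0.0146 for EIF3E, 0.0072 for EIF3F, 0.0027 for EIF3L, 0.0026 for EIF4G2 and 2e-04 for EIF4H. EIF3E was 6e-04 without a filter and 0.0012 with the replicate block. Among the pairs, EIF4E2 minus EIF4E ranged from -0.0717 to 0.0728 and EEF2K minus EEF2 from -0.0152 to 0.152 with 1 library left out. The cause of these changes was not tested. With 3 libraries a group, changes of 1.5-fold or less were often under the limit of detection, and larger ones sometimes. A factor that did not pass was thus not shown to be unchanged.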
